A study of Mus musculus with 35 samples.

Results

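Stable clones of mouse embryonic fibroblasts (MEFs) that live on NELFB without its C-terminal end (Δ-C60) were compared with clones that carry wild-type NELFB from the same vector (WT(N48)). Both groups were taken by their labels, 3 clones each, so that 6 of the 35 RNA-seq samples of the series, and 6 of its 15 clones, enter the comparison. The cells are immortalized MEFs of the genotype Nelfb flox/-, with 1 null and 1 floxed allele, grown in DMEM with 10% FBS. The labels give pBabe-delta-C60 as the construct of the Δ-C60 clones and pBabe-WT-ATG-NELFB as that of the WT(N48) clones, and they list Ad-Cre, an adenovirus that carries Cre recombinase, and isolation of single clones for both. The study's methods describe NELFB with a C-terminal flag tag, brought in by lentivirus with selection in G418 before Cre removed the floxed allele, whereas pBabe in the labels of these 6 clones is a retroviral vector. What N48 stands for, the strain and the sex are not given in the sources used here. The question was how far the transcriptome of cells that depend on the truncated protein departs from that of cells with the intact one. Every clone grew from 1 cell, so that differences between 2 groups of 3 clones hold both the construct and whatever set these single cells apart. The p-values measure the spread between clones, which the main fit estimated over all 15 clones of the series.

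NELFB is a subunit of the negative elongation factor NELF, which also holds NELFA, NELFC or NELFD and NELFE. NELF and DSIF hold RNA polymerase II shortly after the start site, and the kinase P-TEFb releases it into the gene body. Immediate early genes, heat shock genes and many genes of development are known for polymerase that waits at their promoters.

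The end of the Nelfb coding sequence is shown because Δ-C60 is named for its loss. It was placed by the study's cloning primers on the annotated transcript. The pBabe constructs of these clones were not sequenced here, and whether they differ elsewhere was not tested. On mouse GRCm38, which is mm10, the transcript of 13 exons lies on the minus strand of chromosome 2, and its annotated protein has 631 codons. By these primers, the 60 codons that Δ-C60 lacks are the last 36 coding bases of exon 12 and 144 coding bases of exon 13. They lie between positions 25200323 and 25200694, and 571 of the annotated codons are left. Printed 5′ to 3′ on the coding strand are the 16 bases before the cut and the 180 bases lost, between 25200323 and 25200710. The first run of capitals marks the bases matched by the study's reverse primer for Δ-C60, and the last run those matched by its reverse primer at the full-length end.
Nelfb coding end: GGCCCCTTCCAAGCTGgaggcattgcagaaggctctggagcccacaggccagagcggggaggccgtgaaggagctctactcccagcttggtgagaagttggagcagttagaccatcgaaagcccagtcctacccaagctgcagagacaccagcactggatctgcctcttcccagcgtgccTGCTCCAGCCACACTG

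Reads counted on genes were 26636036, 27365670 and 23946987 in Δ-C60 clones 1 to 3 and 21092518, 20296206 and 27816723 in WT(N48) clones 1 to 3. Levels are given as CPM, the reads of a gene relative to all reads of its library, after TMM normalization, which brings most genes to a common level. Nelfb had 247, 208 and 218 CPM in Δ-C60 clones 1 to 3 and 241, 127 and 56.3 CPM in WT(N48) clones 1 to 3. The Δ-C60 clones lay close together and the WT(N48) clones spread over a range that reached from below all of them to above 2 of them. Counts per gene join reads from the construct and from the cell's own Nelfb, and do not show which end of the transcript they cover, so this gene does not check the labels. Transcripts of the partner subunits stayed within the spread of the clones. Nelfa had 79.3, 51.6 and 58.9 CPM in Δ-C60 clones 1 to 3 and 67.5, 64.7 and 67.5 CPM in WT(N48) clones 1 to 3, and its log2 fold change (Δ-C60 minus WT(N48) throughout) was −0.072 (SE 0.20). For Nelfcd it was 0.22 (SE 0.22), and for Nelfe −0.11 (SE 0.17), with groups that overlapped for each of these subunits.

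No gene was called between the groups. Of 13223 genes with enough reads to test, out of 24421 listed, 0 (0%) passed an adjusted p of 0.05 with an absolute log2 fold change over 1 in the quasi-likelihood test of edgeR, adjusted by Benjamini and Hochberg, and the smallest adjusted p was 0.0701. At an unadjusted p under 0.05 stood 1540 genes (11.6%), 946 of them (7.15% of those tested) higher and 594 (4.49%) lower in Δ-C60. With edgeR on the 6 clones alone, 706 genes (5.6%) stood there and the smallest adjusted p was 0.649. DESeq2 on the same 15 clones called 142 genes (1.07%), 82 higher and 60 lower, DESeq2 on the 6 clones alone 52, and limma voom with quality weights, which give Δ-C60 clone 2 the lowest weight of the 15 clones (0.175), 7. For 7525 genes (56.9%) the 95% interval of the log2 fold change lay between −1 and 1, so that for them a change past that size lay outside the interval. For the other genes tested the data set no such bound, and a p above the threshold does not show that the groups are alike.

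Estimated differences were small for most genes. The log2 fold change was under 0.5 in size for 9669 genes (73.1%), over 1 for 1409 (10.7%) and over 2 for 417 (3.15%), beside a median SE of 0.28. It was above 0 for 52.8% of the genes. By a simple count that uses no model, 1517 genes (11.5%) had groups that did not overlap. In 772 (5.84%) all 3 Δ-C60 clones were above all 3 WT(N48) clones, and in 745 (5.63%) all 3 were below. With 3 clones on each side, a share near this size can arise where the groups do not differ, so the count alone does not show a difference. These shares of all genes tested are the background for the counts of every gene group that follows. With libraries scaled by their size alone, in place of TMM, the median log2 fold change of all genes moved from 0.026 to −0.069, and the split became 525 higher and 1083 lower.

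Of the 3 pairs of Δ-C60 clones, 2 differed more than any pair across the groups. By contrast, 2 of the 3 pairs of WT(N48) clones were closer than any pair across the groups. The median absolute difference over genes in log2 CPM, computed with a prior count of 2 reads that draws low genes together, was 0.206, 0.366 and 0.439 for the 3 pairs of WT(N48) clones. For pairs of Δ-C60 clones it was 0.442, 0.559 and 0.581, and for the 9 pairs across the groups it ran from 0.375 to 0.543. The closest pair was WT(N48) clones 1 and 2, and the farthest was Δ-C60 clones 1 and 2. The SD of log2 CPM within a group had a median over genes of 0.444 in Δ-C60 and 0.283 in WT(N48), beside 0.22 to 0.29 in the other 3 clone groups of the series. The main fit pooled these groups, so the spread it used can be smaller than that within Δ-C60. More than a 4-fold range among its 3 clones was seen for 1867 genes (14.1%) in Δ-C60 and for 1149 (8.69%) in WT(N48).

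**Figure D1:**
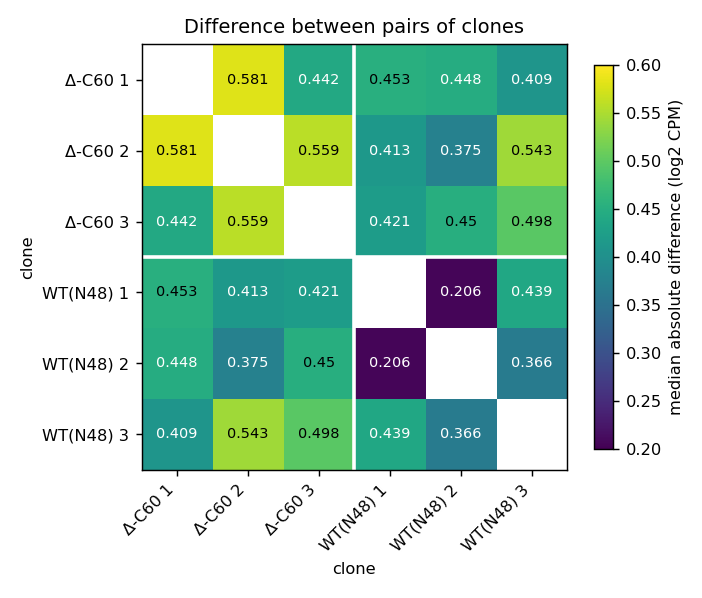
Median absolute difference in log2 CPM over the 13223 genes tested for each pair of the 6 clones, with the value in each cell and white lines between the groups. The range of the 3 pairs within Δ-C60 (0.442 to 0.581) overlaps that of the 9 pairs across the groups (0.375 to 0.543), and WT(N48) clones 1 and 2 (0.206) are the closest pair.

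The 12 genes with the smallest p among those higher in Δ-C60, with at least 5 CPM in a group and groups that did not overlap, included 10 that lie on 2 chromosomes. Pkia, which encodes an inhibitor of protein kinase A and lies on chromosome 3 from 7366669 to 7445366, had 126, 148 and 96.2 CPM in Δ-C60 clones 1 to 3 and 27.3, 11.1 and 28.2 CPM in WT(N48) clones 1 to 3. The lowest Δ-C60 clone stood far above the highest WT(N48) clone (log2 fold change 2.47, SE 0.39, adjusted p = 0.0701). Icmt, which methylates the prenylated end of RAS and related proteins (chromosome 4 from 152297227 to 152307121), had 155, 143 and 143 CPM against 80.7, 80.2 and 67.8 CPM in the same order of clones. Both groups were narrow beside the distance between them (log2 fold change 0.95, SE 0.15, adjusted p = 0.0701). Prdm2, a histone methyltransferase gene (chromosome 4 from 143107391 to 143212995), had 117, 113 and 119 CPM against 53, 63 and 60.6 CPM. Clic4, an intracellular chloride channel protein (chromosome 4 from 135213969 to 135272814), had 907, 949.8 and 871 CPM against 495, 488 and 298 CPM. In both genes the Δ-C60 clones lay close together and above every WT(N48) clone.

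Larp1b, an RNA-binding protein of the La-related family (chromosome 3 from 40949828 to 41040234), had 39.6, 34.2 and 30.9 CPM in Δ-C60 and 11.1, 9.39 and 7.95 CPM in WT(N48) (log2 fold change 1.88, SE 0.32, adjusted p = 0.0809). Serpini1, which encodes the protease inhibitor neuroserpin (chromosome 3 from 75557547 to 75643495), had 8.14, 6.18 and 4.59 CPM against 0.406, 0.60 and 0.806 CPM (log2 fold change 3.36, SE 0.58, adjusted p = 0.0809). Serpini1 was thus under 1 CPM in every WT(N48) clone. Kif5c, a kinesin heavy chain gene (chromosome 2 from 49619298 to 49774778), had 31.7, 10.1 and 80.5 CPM against 1.37, 2.8 and 3.61 CPM, with a wide range within Δ-C60 and a log2 fold change of 3.97 (SE 0.73). Plod1, a lysyl hydroxylase that modifies collagen, had 147, 89.5 and 139 CPM against 69.1, 64.4 and 41.7 CPM. Zdhhc2, a palmitoyltransferase gene, had 34.2, 24.2 and 56.2 CPM against 7.76, 4.25 and 4.48 CPM. In Plod1 and Zdhhc2, Δ-C60 clone 2 was the lowest of its group and still above each WT(N48) clone. The remaining 3 were Mtf1, a transcription factor of metal response, Chmp4c of the ESCRT-III machinery, and Sh3glb1, with log2 fold changes of 0.92, 4.06 and 0.73. Of the 12 genes 5 lie on chromosome 3, 5 on chromosome 4, and 1 each on chromosomes 2 and 8. In Icmt, Prdm2, Larp1b, Zdhhc2 and Sh3glb1 the Δ-C60 clones stood above all 9 other clones of the series. In Pkia, Kif5c and Plod1 it was the WT(N48) clones that stood below all of them. Both held for Serpini1, Clic4 and Mtf1, and neither for Chmp4c.

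The 12 genes with the smallest p among those lower in Δ-C60, with at least 5 CPM in a group and groups that did not overlap, were spread over 6 chromosomes. Chrac1, a subunit of a chromatin remodelling complex (chromosome 15 from 73090392 to 73097554), had 24.6, 24.8 and 22.7 CPM in Δ-C60 clones 1 to 3 and 47.3, 50.4 and 41.5 CPM in WT(N48) clones 1 to 3. The groups were narrow and did not overlap (log2 fold change −0.95, SE 0.14, adjusted p = 0.0701). The 9 other clones of the series ran from 19.6 to 34.9 CPM, so that Δ-C60 lay within their range and WT(N48) above it. Spag7 (chromosome 11 from 70663771 to 70669416) had 17.9, 17.6 and 19.5 CPM against 41.2, 42.5 and 48 CPM (log2 fold change −1.26, SE 0.20, adjusted p = 0.0701). Oat, the mitochondrial enzyme ornithine aminotransferase (chromosome 7 from 132557478 to 132576398), had 133, 121 and 106 CPM against 270.1, 241 and 202 CPM (log2 fold change −0.99, SE 0.18, adjusted p = 0.0982). Igf2bp3, an RNA-binding protein of embryonic tissues (chromosome 6 from 49085223 to 49214957), had 1.89, 12.1 and 1.68 CPM against 58.8, 58.7 and 50.9 CPM, and Δ-C60 clone 2 stood above the other Δ-C60 clones but well below WT(N48) (log2 fold change −3.42, SE 0.60, adjusted p = 0.0995).

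Tgfb1, the ligand TGF-beta 1 (chromosome 7 from 25687002 to 25705077), had 23, 18.7 and 16.3 CPM in Δ-C60 and 49, 60.3 and 34.9 CPM in WT(N48), with log2 fold change −1.31 (SE 0.26). Tnfrsf1a, the main receptor for tumor necrosis factor (chromosome 6 from 125349362 to 125362484), had 126, 88.9 and 124 CPM against 189.8, 219 and 198 CPM, with log2 fold change −0.84 (SE 0.17). C1ra, a protease of the complement cascade (chromosome 6 from 124512405 to 124523443), had 4.73, 3.52 and 5.78 CPM against 8.12, 42.5 and 40.7 CPM. WT(N48) clone 1 lay near the Δ-C60 clones for C1ra, and the WT(N48) mean was carried by clones 2 and 3. Chil1, a secreted chitinase-like protein, had 0.0401, 0.0749 and 0 CPM against 0.406, 12.7 and 3.57 CPM, so that it was at or near 0 in Δ-C60 and ranged widely in WT(N48). The other 4 were Ptms, Ech1, Dstyk and Pdcl, with log2 fold changes from −0.78 to −0.57. In Dstyk and Pdcl, as in Chrac1, WT(N48) clones stood above all 9 other clones of the series (at most 57.5 and 46 CPM) and Δ-C60 within their range. In Oat and Igf2bp3 WT(N48) also stood above them all. In Tgfb1, Tnfrsf1a, C1ra and Ech1 it was the Δ-C60 clones that stood below all of them. None of the 24 genes passed an adjusted p of 0.05 in edgeR, where their adjusted p ran from 0.0701 to 0.201. In DESeq2 on the same 15 clones it ran from 1.17e-07 (Chrac1) to 0.00586 (Ech1). The genes were picked by small p and separate groups in these same counts, so low values in DESeq2 are no separate support.

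**Figure D2:**
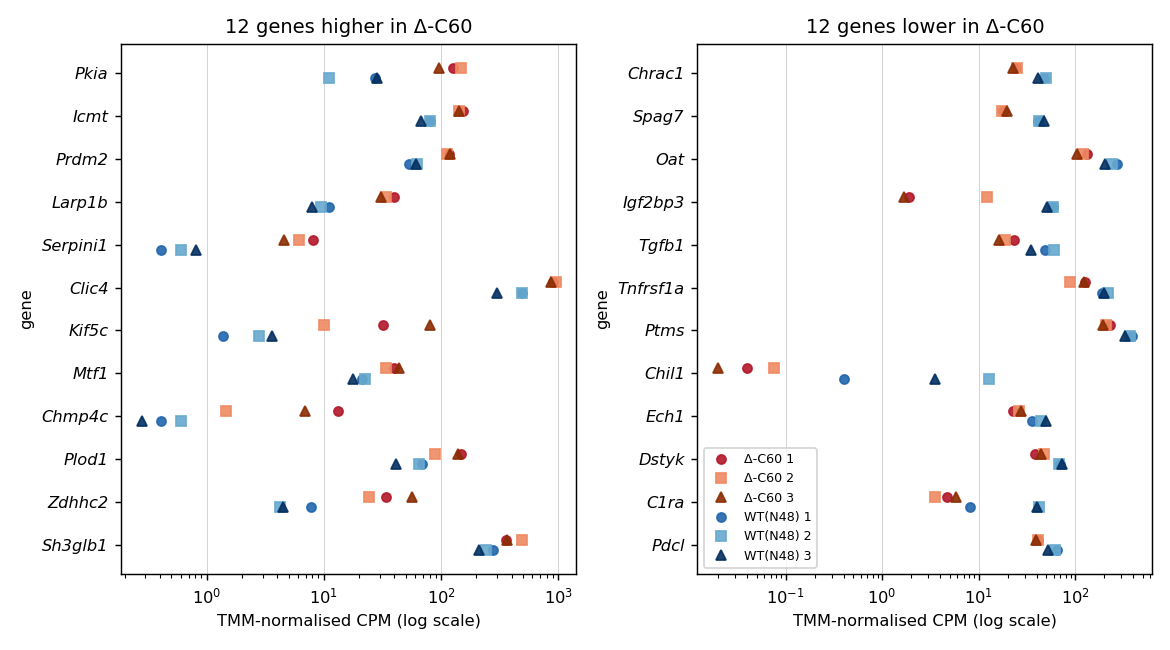
TMM-normalised CPM on a log axis for the 12 genes higher (left) and 12 lower (right) in Δ-C60 with the smallest unadjusted p. Only genes with at least 5 CPM in a group and groups that did not overlap were taken, with 1 marker per clone. A Δ-C60 clone with 0 reads on Chil1 is drawn at the lowest value of that axis. Reds are Δ-C60 clones and blues WT(N48) clones, and in genes such as Icmt (143 to 155 against 67.8 to 80.7 CPM) each group is narrow.

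A wider gap between the groups was seen in fewer genes, which were ranked by the distance between the nearest clones in log2 CPM with the prior count of 2, and chosen after their values were seen. On that scale the lowest Δ-C60 clone was more than 2-fold above the highest WT(N48) clone in 22 genes, and the highest Δ-C60 clone more than 2-fold below the lowest WT(N48) clone in 28. For genes of few reads, such as Chil1 and Adra2a, the gap in CPM itself is wider than on that scale. A gap of over 4-fold with the prior count was left in 2 genes that were higher, Serpini1 and D330045A20Rik, and in 6 that were lower, namely Gpc3, Abca9, Gal3st3, Inhbb, Igf2bp3 and Cecr6. Gpc3, the X-linked glypican-3 that modulates growth factor signaling at the cell surface, had 0.0401, 0.749 and 0.444 CPM in Δ-C60 and 20.2, 8.84 and 15.4 CPM in WT(N48). Inhbb, the beta B chain of activin and inhibin, had 2.57, 6.55 and 6.61 CPM against 40.8, 30.2 and 42 CPM. Abca9, an ABC transporter gene, had 0.642, 1.5 and 1.43 CPM against 7.86, 13.2 and 15.1 CPM. In these 3 genes every Δ-C60 clone was far below every WT(N48) clone. For Gpc3 the 9 other clones of the series were all at 0 CPM, so that WT(N48) was the group that stood apart. In those clones Inhbb ran from 1.06 to 94.2 CPM with a median of 5.46, near the Δ-C60 level. Abca9 ran from 2.39 to 22.7 CPM with a median of 8.12, near the WT(N48) level. Adra2a, the alpha-2A adrenergic receptor, had 0.12, 0.487 and 0.296 CPM against 4.62, 2.6 and 2.17 CPM, with an adjusted p of 0.0809 in edgeR. Of the 50 genes with a gap over 2-fold, DESeq2 on 15 clones called 34, beside 1.07% of all genes tested. The genes were picked by their gap in the same counts, so these calls are no separate support.

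Genes higher in all Δ-C60 clones were concentrated on chromosomes 3 and 4. On chromosome 4, 208 of 814 genes tested (25.6%) were higher in all Δ-C60 clones, against 5.84% of all genes, and 13 (1.6%) were lower. On chromosome 3 the share was 18.9% of 650 genes, and on chromosome 9 it was 9.19% of 751. Together chromosomes 3 and 4 held 331 of the 772 genes higher in all Δ-C60 clones (42.9%), although they carry 11.1% of the genes tested. Genes lower in all Δ-C60 clones were spread more evenly, with 13.4% on chromosome 6, 12% on chromosome 1 and 9.66% on chromosome 19, against 5.63% of all genes.

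**Figure D3:**
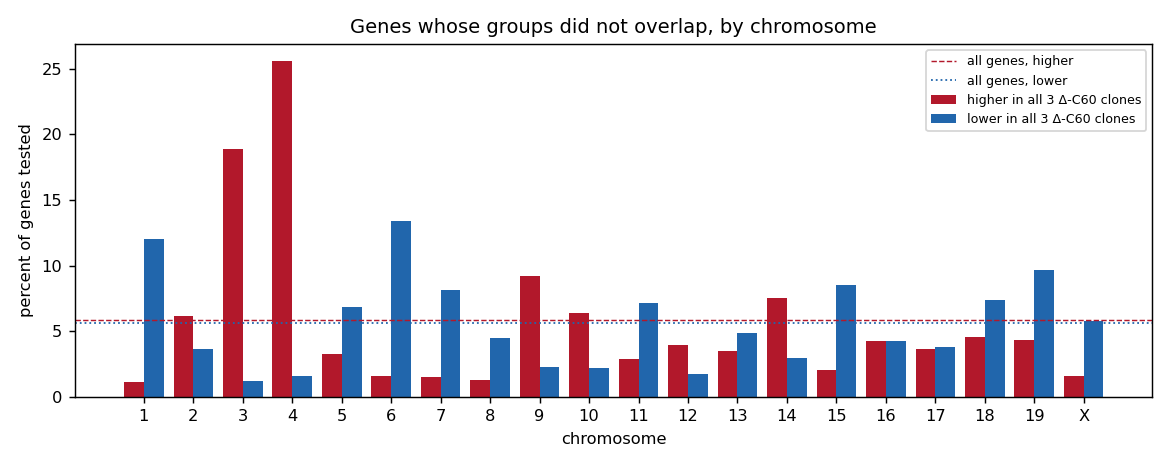
Percent of the genes tested on each chromosome that were higher (red) or lower (blue) in all 3 Δ-C60 clones than in all 3 WT(N48) clones, with dashed and dotted lines at the shares over all genes (5.84% and 5.63%). Chromosome 4 (25.6%) and chromosome 3 (18.9%) stand highest for higher genes.

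Single clones were also shifted along whole chromosomes. For each clone, the median over a chromosome's genes of log2 CPM minus the mean of the 15 clones was taken. On chromosome 4 it was 0.166, −0.182 and 0.0745 in Δ-C60 clones 1 to 3 and −0.352, −0.189 and −0.323 in WT(N48) clones 1 to 3. These medians did not overlap, but Δ-C60 clone 2 lay next to WT(N48) clone 2, and the 9 other clones of the series ran from −0.0665 to 0.345, so that all 3 WT(N48) clones stood below each of them. On chromosome 3 the values were 0.281, 0.719 and −0.0346 in Δ-C60 and 0.0701, 0.0725 and 0.0131 in WT(N48). There Δ-C60 clone 2 was far above the rest and the groups overlapped. Without Δ-C60 clone 2, the median log2 fold change of chromosome 3 was 0.098 in place of 0.37.

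Other shifts overlapped between the groups. Δ-C60 clone 2 was at −0.783 on chromosome 8, where WT(N48) clones 1 and 2 were at −0.299 and −0.389, and it was beyond 0.3 in size on 10 of 20 chromosomes. Δ-C60 clone 1 was at 0.563 on chromosome 10, where WT(N48) clone 3 was at 0.312, and at −0.701 on X, and Δ-C60 clone 3 at −0.412 on chromosome 11. Among WT(N48) clones, 1 or 2 chromosomes per clone passed 0.3. DNA copy number was not measured here, and its part in these shifts was not tested. When each chromosome's median in each clone was removed in the fit, still no gene was called by edgeR, and the genes with an interval between −1 and 1 numbered 8331 (63%).

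In windows of 20 Mb, the medians of the groups did not overlap in 9 of 137 windows, with 4 higher and 5 lower in Δ-C60. Of the 4, 3 were neighbours on chromosome 4. Between 120000001 and 140000000 of chromosome 4, 89 of 225 genes (39.6%) were higher in all Δ-C60 clones, and between 140000001 and 160000000 it was 55 of 158 (34.8%). Clic4, Mtf1, Prdm2, Plod1 and Icmt lie in this distal stretch. Between 40000001 and 60000000 of chromosome 3, which holds Larp1b, 15 of 51 genes (29.4%) were higher. On chromosome 1, 26 of 104 genes between 120000001 and 140000000 were lower, among them Dstyk, Chil1 and Mcm6.

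**Figure D4:**
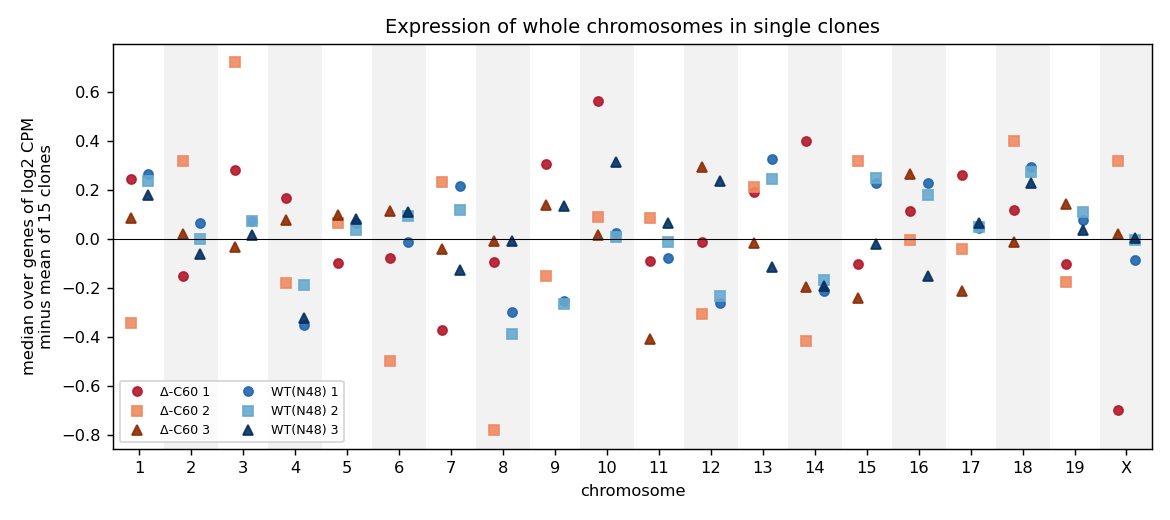
Median over the genes of each chromosome of log2 CPM minus the mean of the 15 clones, for each of the 6 clones (reds Δ-C60, blues WT(N48)). On chromosome 4 the WT(N48) clones lie between −0.352 and −0.189, and Δ-C60 clone 2 reaches 0.719 on chromosome 3 and −0.783 on chromosome 8.

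Gene groups were described by 48 lists, 47 of which had members tested (mitochondrially encoded genes were not analysed here), and no member of any list was called by edgeR. The median log2 fold change was above 0 in 26 lists and below 0 in 21, and within 0.25 of 0 in 37, beside a median of 0.026 over all genes. Of the lists with 10 or more genes tested, 5 had a median over 0.4 in size, namely the clustered histone genes, smooth-muscle contractile genes, integrins and cadherins, and YAP/TEAD targets above 0, and the fibroblast markers below 0, and these 5 kept their sign when libraries were scaled by DESeq2's size factors or by size alone.

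**Figure D5:**
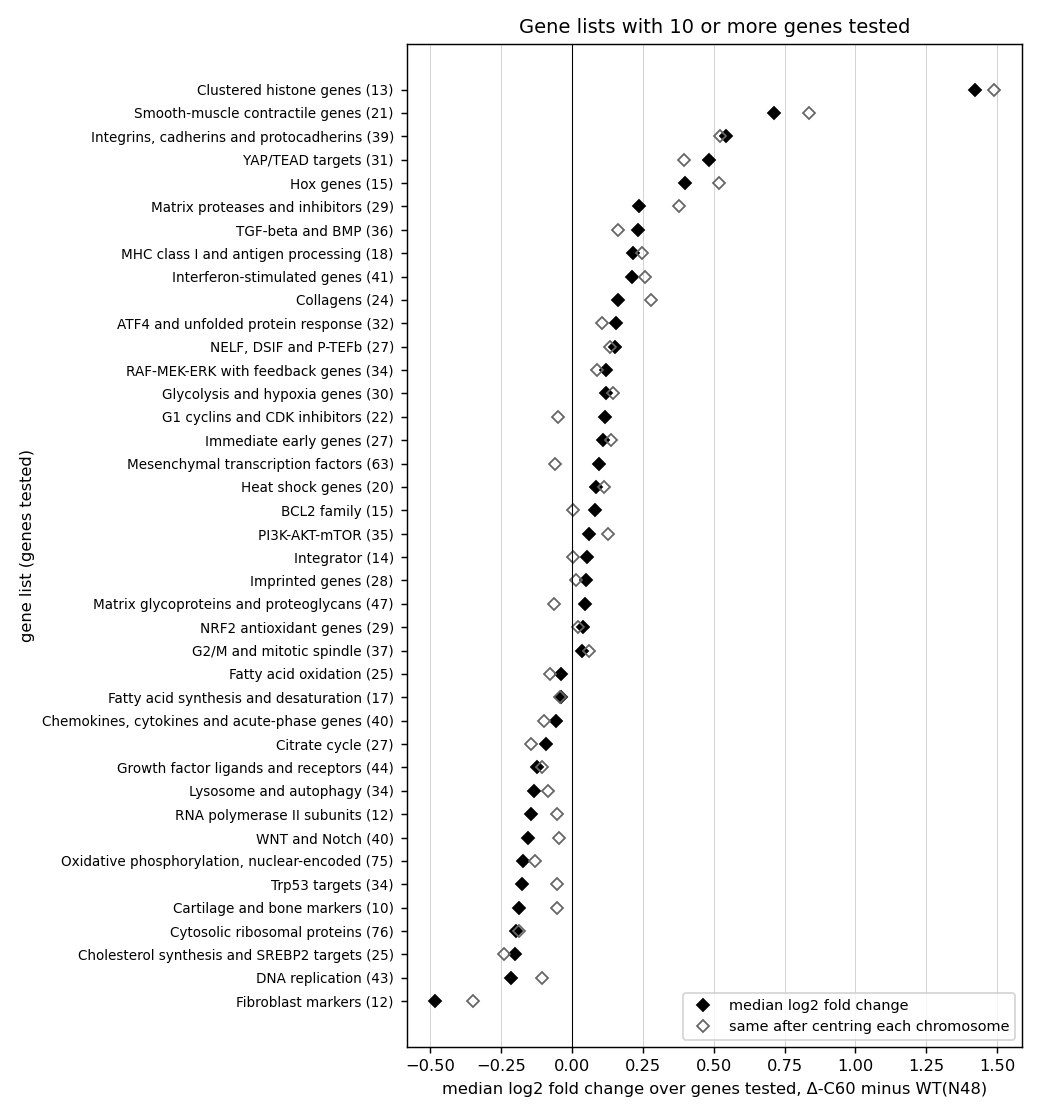
Median log2 fold change (Δ-C60 minus WT(N48)) of each list with 10 or more genes tested, with the number tested in brackets. Filled diamonds are the values as reported and open diamonds those after each chromosome's median in each clone was removed, and most lists lie between −0.25 and 0.25.

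The machinery of pausing and of RNA polymerase II itself differed little. Over 27 genes of NELF, DSIF, P-TEFb and linked elongation factors, all tested, the median log2 fold change was 0.15, 24 intervals lay between −1 and 1 (the median was 0.051 without Δ-C60 clone 2), and 1 gene was higher in all Δ-C60 clones and 0 lower. That gene was Ell3, an elongation factor at 1.09 to 1.36 CPM in Δ-C60 and 0.406 to 0.946 CPM in WT(N48). Aff1, a scaffold of the super elongation complex, had 266, 280.1 and 395 CPM in Δ-C60 clones 1 to 3 and 274, 201.4 and 195 CPM in WT(N48) clones 1 to 3, and Leo1 of the PAF1 complex had 85.8, 55.7 and 69.2 CPM against 43.2, 47.9 and 59.6 CPM. Both were chosen after their values were seen, as the members with an unadjusted p under 0.05. Of 12 polymerase subunits, Polr2j was lower in all Δ-C60 clones, at 37.4, 46.3 and 34.5 CPM against 51.2, 48.2 and 48.6 CPM (log2 fold change −0.32, SE 0.15), and Polr2a, the catalytic subunit, was at 231, 361 and 200.8 CPM against 329, 339 and 276 CPM. Of 14 Integrator subunits, which cleave nascent RNA near paused polymerase, 2 were higher in all Δ-C60 clones. These were Cpsf3l, the endonuclease, at 56.3, 35 and 34.9 CPM against 22.9, 27.6 and 23.9 CPM, and Ints8, at 85.5, 78.1 and 121 CPM against 70.8, 76 and 66.5 CPM, and both lie on chromosome 4. The Integrator list median was 0.053, −0.047 under library size alone and −0.062 without Δ-C60 clone 1.

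Immediate early genes, whose promoters are known for paused polymerase, stood on both sides. Of 27 tested, 1 was higher and 1 lower in all Δ-C60 clones. Fosb had 2.97, 3.56 and 5.92 CPM in Δ-C60 clones 1 to 3 and 2.33, 2.5 and 1.19 CPM in WT(N48) clones 1 to 3 (log2 fold change 1.05, SE 0.42, adjusted p = 0.36). Egr2 had 7.34, 3.56 and 2.07 CPM in Δ-C60 and 10.1, 10.2 and 13.2 CPM in WT(N48) (log2 fold change −1.37, SE 0.38, adjusted p = 0.225). The distance between the nearest clones was small for both genes. The list median was 0.11, and −0.13 (without WT(N48) clone 3) to 0.33 (without WT(N48) clone 1) with 1 clone left out. Egr1, chosen with Fos after their values were seen, had 259.9, 52.1 and 69.7 CPM against 179, 248 and 446 CPM and Fos 13.5, 2.4 and 4.69 CPM against 6.7, 13.2 and 30.9 CPM, so that in both Δ-C60 clone 1 overlapped WT(N48) and the other Δ-C60 clones were below it. Of 20 heat shock genes tested of 21, Hsf2 and Hsp90aa1 were higher and Cryab lower in all Δ-C60 clones. Hsp90aa1, a cytosolic chaperone, had 191, 188 and 269.6 CPM against 158, 151 and 172 CPM.

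Histone genes of the clusters, whose mRNAs lack poly(A) tails for the most part, had the highest list median, 1.42 over 13 genes tested of 14, and it came from 1 clone. Hist1h4h, chosen like the next 2 genes after its values were seen, had 0.842, 69.5 and 1.53 CPM in Δ-C60 clones 1 to 3 and 2.74, 4.85 and 0.385 CPM in WT(N48) clones 1 to 3. Hist1h4i had 8.26, 32.6 and 8.59 CPM in Δ-C60 and 7.81, 8.44 and 2.0 CPM in WT(N48), and Hist1h2be 2.85, 16.9 and 1.38 CPM against 1.57, 2.2 and 0.28 CPM. In each the Δ-C60 clone 2 was alone at the top. Without Δ-C60 clone 2 the list median was 0.096, and the 1 gene with groups that did not overlap was Hist1h2bj.

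Genes of energy metabolism differed little, and most of those with groups that did not overlap were lower in Δ-C60. Of 75 nuclear-encoded genes of oxidative phosphorylation tested, of 77, 10 were lower and 1 higher in all Δ-C60 clones, the median log2 fold change was −0.17, and 70 intervals lay between −1 and 1. Without WT(N48) clone 3 the median was −0.082, and without Δ-C60 clone 3 −0.099. Ndufa5 of complex I had 33.2, 34 and 33 CPM in Δ-C60 clones 1 to 3 and 43.3, 43.5 and 50.8 CPM in WT(N48) clones 1 to 3 (log2 fold change −0.46, SE 0.12, adjusted p = 0.22). Cox5b of complex IV had 30.3, 20.4 and 20.4 CPM against 31.3, 31.2 and 39.3 CPM, and Ndufa9 of complex I 76, 53.7 and 75.6 CPM against 88.8, 84.3 and 94.1 CPM. The gene that was higher was Sdhb of complex II on chromosome 4, at 88.9, 72.3 and 87.4 CPM against 57.4, 60.8 and 57.5 CPM, while its partner Sdhc on chromosome 1 was lower, at 83.3, 82.9 and 86.7 CPM against 102, 109 and 133 CPM. Subunits of the same complex therefore stood on opposite sides. With chromosome medians removed, log2 fold changes were −0.21 for Ndufa5 and −0.18 for Ndufa9, both on chromosome 6, in place of −0.46 and −0.38. For Cox5b on chromosome 1 it was −0.31 in place of −0.52. Sdhb was then at 0.19 in place of 0.50 and Sdhc at −0.20 in place of −0.45. The median of the oxidative phosphorylation list was −0.13 with chromosome medians removed. Among 27 citrate cycle genes, 1 was higher (Sdhb) and 5 were lower (Idh2, Idh3g, Sdhc, Suclg2 and Fh1) in all Δ-C60 clones. The list median was −0.093, and −0.011 without WT(N48) clone 3. Idh2 was at 144, 273 and 232 CPM against 292, 301 and 325 CPM, and Idh3g at 41, 59.3 and 53.9 CPM against 63.9, 71.2 and 80.5 CPM.

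For 25 genes of cholesterol synthesis and its regulation the median was −0.20, but −0.011 without WT(N48) clone 3, −0.33 without WT(N48) clone 1 and −0.34 without Δ-C60 clone 1. Sqle, the squalene epoxidase, was lower in all Δ-C60 clones at 358, 503 and 343 CPM against 522, 591 and 575 CPM, as were Insig1 and Idi1. In fatty acid synthesis Me1, malic enzyme, was higher at 129, 116 and 119 CPM against 88.5, 80.5 and 81.2 CPM and Fads1, a desaturase, lower at 141, 161 and 204 CPM against 208, 246 and 294 CPM. Of 30 genes of glycolysis and hypoxia tested, of 32, Pkm, pyruvate kinase, was higher in all Δ-C60 clones at 1837, 1585 and 1493 CPM against 1137, 987 and 1138 CPM (log2 fold change 0.59, SE 0.18, adjusted p = 0.254). Eno2, an enolase, was lower at 20.7, 13.7 and 15.1 CPM against 21.1, 37.5 and 45.4 CPM (log2 fold change −1.07, SE 0.34, adjusted p = 0.263). Of 25 genes of fatty acid oxidation tested, of 26, Cpt1a was higher and Acads lower in all Δ-C60 clones. The lists of fatty acid synthesis, fatty acid oxidation and glycolysis therefore had members on both sides.

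For ribosomal protein and DNA replication genes, list medians were below 0, also under each scaling tried. Of 76 cytosolic ribosomal protein genes tested, of 78, 11 were lower and 1, Rpl27, higher in all Δ-C60 clones, with a median of −0.20 that stayed between −0.26 and −0.14 with any of the 6 clones left out. Rps9 had 193.9, 188 and 185 CPM in Δ-C60 clones 1 to 3 and 293, 275 and 241 CPM in WT(N48) clones 1 to 3 (log2 fold change −0.51, SE 0.16, adjusted p = 0.262). Rplp0 of the ribosomal stalk, chosen after its values were seen, had 850.2, 877 and 899 CPM against 1187, 1207 and 1311 CPM, and Rpl23 59.8, 72 and 47.4 CPM against 74, 82.3 and 95.8 CPM. These genes have processed pseudogenes, and a mapping quality of at least 30 keeps few reads that fit copies equally well, so their counts are uncertain and reads of such copies may be split. Summed over the list, CPM was 10080, 10040 and 9162 in Δ-C60 and 12020, 11860 and 11600 in WT(N48).

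Of 43 DNA replication genes, 9 were lower and 0 higher in all Δ-C60 clones, and the median was −0.21, between −0.29 and −0.15 with 1 clone left out and −0.10 with chromosome medians removed. Mcm6, a subunit of the replicative helicase, had 267, 183 and 222 CPM in Δ-C60 clones 1 to 3 and 362, 336 and 358 CPM in WT(N48) clones 1 to 3 (log2 fold change −0.65, SE 0.18, adjusted p = 0.228). Mcm7 of the same complex had 148, 165 and 135 CPM against 194.1, 196 and 255 CPM, and Pola1, the catalytic subunit of DNA polymerase alpha, 52.1, 83.8 and 68.6 CPM against 99.7, 89.7 and 102 CPM. The other 6 were Pcna, Gins1, Gins4, Pold3, Lig1 and Rfc3. For genes of G2/M and the spindle the median was 0.036, −0.068 under library size alone and −0.023 without Δ-C60 clone 3, with 2 members higher and 4 lower (Aurkb, Mad2l1, Nusap1 and Cks2) in all Δ-C60 clones and 36 of 37 intervals between −1 and 1. Cenpe, a kinetochore motor, was higher at 182, 224 and 210.3 CPM against 165, 142 and 141 CPM, and Ccna2, cyclin A2, higher at 410.5, 367 and 356 CPM against 312, 264 and 327 CPM, both on chromosome 3. Aurkb, the kinase of the chromosomal passenger complex, was lower at 64.9, 55.9 and 57.7 CPM against 87.2, 84 and 87.5 CPM. Of 22 G1 cyclins and CDK inhibitors, Ccne2, cyclin E2, was higher and Rbl2, a pocket protein, lower in all Δ-C60 clones.

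Targets of Trp53 held 4 of 34 genes that were higher in all Δ-C60 clones, and 0 that were lower, beside a median of −0.18 that is on the opposite side. Plk3 had 14.7, 11.6 and 13 CPM in Δ-C60 clones 1 to 3 and 7.91, 6.65 and 3.26 CPM in WT(N48) clones 1 to 3. Ddit4, an inhibitor of mTORC1, had 75.5, 61.8 and 37.9 CPM against 24.9, 30.3 and 32.9 CPM, and Tnfrsf10b, a death receptor, 50.4, 27.1 and 26.5 CPM against 24.6, 21.7 and 24.1 CPM. In Tnfrsf10b and Plk2, the remaining gene, the nearest clones of the groups were close. Without Δ-C60 clone 3 the list median was 0.0090, and without each other clone it was between −0.15 and −0.057.

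Among kinase pathways of survival and growth, shares of genes with groups apart lay on both sides of the shares over all genes. Of 35 PI3K-AKT-mTOR genes tested, of 37, 1 was higher in all Δ-C60 clones and 0 lower. Foxo1, a transcription factor that AKT restrains, had 111, 147 and 104 CPM in Δ-C60 clones 1 to 3 and 89.98, 86.4 and 59.1 CPM in WT(N48) clones 1 to 3, and Akt1 had 343, 286 and 674 CPM against 331, 261 and 327 CPM. For Akt1 clone 3 of Δ-C60 stood alone at the top. Of 34 genes of the RAF-MEK-ERK chain and its feedback, 3 were higher and 0 lower. Map2k1, the kinase MEK1, had 124, 84.2 and 157 CPM against 81.3, 74.1 and 80.5 CPM (log2 fold change 0.63, SE 0.18, adjusted p = 0.246), Nras 218, 286 and 212 CPM against 198, 177 and 178 CPM, and Shc1 186, 171 and 145 CPM against 139.7, 140.1 and 137 CPM. Nras, Shc1 and Foxo1 lie on chromosome 3, and Map2k1 on chromosome 9. With chromosome medians removed, the log2 fold change was 0.099 for Nras and 0.015 for Shc1, in place of 0.38 and 0.27. For Foxo1 it was 0.34 in place of 0.62, and for Map2k1 0.38. Of 44 ligand and receptor genes of growth factors tested, of 52, Egfr was higher at 221, 181 and 243 CPM against 177, 151 and 166 CPM and 5 were lower (Fgfr2, Pdgfrb, Igf2, Igfbp5 and, with at most 11 reads in a clone, Ednra), with Fgfr2 at 95.6, 122 and 137 CPM against 193.6, 199 and 144 CPM.

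In TGF-beta and BMP signaling, 2 ligand genes were lower and 2 regulators and 2 receptors higher in all Δ-C60 clones. The ligand genes were Tgfb1 and Inhbb, described above, among 36 genes tested, of 43. The list median was 0.23, and it ran from 0.12 without Δ-C60 clone 3 to 0.50 without WT(N48) clone 1. Skil, the SMAD repressor SnoN, had 155, 172 and 198 CPM in Δ-C60 clones 1 to 3 and 122, 91.3 and 46.7 CPM in WT(N48) clones 1 to 3 (log2 fold change 1.01, SE 0.29, adjusted p = 0.236). Id2, an inhibitor of bHLH factors and a BMP target, had 176, 151 and 144 CPM against 101, 102 and 116 CPM (log2 fold change 0.56, SE 0.17, adjusted p = 0.254). The receptors were Acvr2a, an activin receptor, at 29.5, 32.4 and 42.8 CPM against 29.1, 25.4 and 23 CPM and Bmpr1b, a BMP receptor, which had 2, 5 and 17 reads against 0 in each WT(N48) clone. Of 40 WNT and Notch genes tested, of 48, 2 were higher and 4 lower in all Δ-C60 clones, of which 3 are ligands and 1, Dkk3, is a secreted modulator. Wnt6 had 0.642, 4.91 and 0.0987 CPM in Δ-C60 and 12.8, 30.1 and 28 CPM in WT(N48), and Wnt10b 1.2, 16.2 and 5.43 CPM against 47.9, 29.9 and 33.8 CPM. Wnt5b had 1.0, 0.974 and 1.38 CPM against 2.84, 3.35 and 4.62 CPM. Sfrp1, a secreted WNT antagonist, was higher at 11.9, 63 and 27 CPM against 3.19, 5.6 and 4.17 CPM, and Notch2 on chromosome 3 at 300.2, 346 and 284 CPM against 247, 199.9 and 227 CPM, so that in both Δ-C60 clone 2 was the highest clone.

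The YAP/TEAD and contractile lists had medians above 0, while their clone medians overlapped between the groups. Of 31 YAP/TEAD targets, 24 had a log2 fold change above 0 and the median was 0.48, 8 had an unadjusted p under 0.05, and 3 were higher in all Δ-C60 clones. Ankrd1, a long-used readout of YAP activity, had 19.3, 22.2 and 6.51 CPM in Δ-C60 clones 1 to 3 and 0.71, 0.20 and 4.41 CPM in WT(N48) clones 1 to 3 (log2 fold change 3.12, SE 0.82, adjusted p = 0.22). The 9 other clones of the series ran from 8.4 to 139 CPM, with a median of 20.6, so that WT(N48) stood below all of them. Wwtr1, the coactivator TAZ itself, on chromosome 3, had 349, 464 and 291 CPM against 216, 209 and 229.9 CPM, and F3, tissue factor, 253, 163 and 529.5 CPM against 161, 108 and 158 CPM. Cyr61, chosen after its values were seen, had 1770, 957 and 2304 CPM against 1038, 621 and 473 CPM, with Δ-C60 clone 2 within the range of WT(N48). The clone medians of the list, relative to the mean of 15 clones, were 0.636, 0.0397 and 0.958 in Δ-C60 and 0.354, 0.0455 and −0.0895 in WT(N48). The list median ran from 0.14 without Δ-C60 clone 3 to 0.73 without Δ-C60 clone 2.

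Smooth-muscle contractile genes, which stress fibers of fibroblasts also use, had a median of 0.71 over 21 genes tested of 23, which ran from 0.38 without Δ-C60 clone 3 and 0.42 without WT(N48) clone 3 to 1.18 without WT(N48) clone 1. In 1 of them, Actn1, the groups did not overlap. Actn1, which encodes alpha-actinin, had 725, 651 and 2247 CPM in Δ-C60 clones 1 to 3 and 639, 439.6 and 336 CPM in WT(N48) clones 1 to 3. Tpm1, a tropomyosin, chosen with Vcl after their values were seen, had 3656, 1804 and 6389 CPM against 1548, 1276 and 2003 CPM, and Vcl, vinculin, 1746, 418 and 1619 CPM against 681, 484 and 419 CPM. For Vcl Δ-C60 clone 2 was level with WT(N48) clone 3, and the other Δ-C60 clones were far above. The list's clone medians, relative to the mean of 15 clones, were 0.926, 0.0136 and 1.52 in Δ-C60 and 0.866, 0.589 and −0.601 in WT(N48), so that the groups overlapped widely.

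The list of integrins, cadherins and protocadherins, which also holds Alcam, had 39 genes tested, of 46. Of these, 4 were higher (Itga3, Itga7, Cdh2 and Alcam) and 4 lower (Itga6, Itga9, Cdh1 and Pcdhb22) in all Δ-C60 clones. The list median was 0.54, and it ran from 0.21 without WT(N48) clone 3 to 0.79 without WT(N48) clone 1. Itga7, a laminin receptor chain, had 8.99, 4.87 and 4.69 CPM in Δ-C60 clones 1 to 3 and 0.862, 2.2 and 1.72 CPM in WT(N48) clones 1 to 3 (log2 fold change 1.95, SE 0.44, adjusted p = 0.201). Itga3 had 352, 301 and 334 CPM against 233, 140.2 and 225 CPM, while Itga6, also a laminin receptor chain, was lower at 75.5, 49.4 and 41.1 CPM against 124, 84.2 and 96.2 CPM. Of 47 matrix glycoprotein genes tested, of 50, 5 were higher (Thbs1, Sparc, Hspg2, Lamb2 and Lox) and 2 lower (Spp1 and Mfap5) in all Δ-C60 clones. Hspg2, perlecan, was higher at 987, 1420 and 1858 CPM against 777, 559.8 and 322 CPM (log2 fold change 1.36, SE 0.36, adjusted p = 0.22), and Thbs1, thrombospondin 1, at 2443, 2731 and 15070 CPM against 2220, 1459 and 1239 CPM. Most of the distance in Thbs1 came from Δ-C60 clone 3. Spp1, osteopontin, was lower at 856, 1981 and 1093 CPM against 2570, 4176 and 2260 CPM (log2 fold change −1.20, SE 0.31, adjusted p = 0.218). Of the matrix proteases, Mmp2, a gelatinase, was lower, like Mmp19, at 625, 379 and 682 CPM against 961, 768 and 916 CPM and Adamts2, which trims procollagen, higher at 16.9, 7.6 and 26.9 CPM against 1.42, 6.35 and 0.385 CPM. Of 24 collagen genes tested, of 28, 1 was higher and 2, Col1a1 and Col15a1, were lower in all Δ-C60 clones. Col4a2 of basement membranes was higher at 214, 217 and 352 CPM against 191, 77.8 and 188 CPM and Col1a1 lower at 3659, 2439 and 2045 CPM against 4393, 3737 and 3745 CPM.

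Among stress and immune lists, shares of genes with groups apart lay on both sides of the shares over all genes (5.84% higher and 5.63% lower). They were 6.25% higher and 3.12% lower for ATF4 and the unfolded protein response, 11.1% and 0% for MHC class I, and 0% each for interferon-stimulated genes. Of 32 genes of ATF4 and the unfolded protein response, 2 were higher (Hyou1 and Dnajb9) and 1 lower (Atf4) in all Δ-C60 clones. Hyou1, a chaperone of the endoplasmic reticulum, was higher at 330.1, 309.7 and 367 CPM against 250.1, 217 and 212 CPM (log2 fold change 0.57, SE 0.15, adjusted p = 0.21), and Atf4 itself lower at 391, 406 and 283 CPM against 595, 539.6 and 422 CPM. None of 41 interferon-stimulated genes tested, of 44, had groups that did not overlap, and 2 had an unadjusted p under 0.05, namely Herc6 and Ifih1. The list median was 0.21, −0.042 without Δ-C60 clone 2, −0.082 without WT(N48) clone 1 and 0.58 without WT(N48) clone 3. Of 18 genes of MHC class I and antigen processing tested, of 20, H2-D1 was higher at 108, 61 and 42.4 CPM against 12.3, 15.3 and 31.1 CPM. Psmb9, whose CPM did not overlap either, had 1 read in each Δ-C60 clone and 0, 0 and 1 in WT(N48), too few to compare. H2-D1 shares sequence with other class I genes, so that its count is uncertain. Among 40 chemokines, cytokines and acute-phase genes tested, of 48, C4b of the complement cascade was lower, like Saa3, at 0.361, 0.45 and 0.296 CPM against 0.761, 2.5 and 5.15 CPM. Of 34 lysosome and autophagy genes tested, of 36, Mitf and Tfeb, both transcription factors of lysosome genes, were lower, with Mitf at 2.45, 6.44 and 2.32 CPM against 9.13, 11.9 and 8.23 CPM (log2 fold change −1.38, SE 0.35, adjusted p = 0.208).

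The cells carried fibroblast genes in every clone. Of 15 fibroblast markers 12 were tested and 3 were under 1 CPM in all 6 clones. Together they had summed CPM of 24440, 15460 and 22990 in Δ-C60 and 26080, 21630 and 17270 in WT(N48), and Fn1, fibronectin, took the most reads. The median log2 fold change was −0.48, and −0.13 without Δ-C60 clone 3. Of the 12 markers tested, 5 had a log2 fold change above 0, among them Fn1 (0.26, SE 0.43), and 7 below 0. Col1a1, Pdgfrb and S100a4 were lower in all Δ-C60 clones, and 0 markers were higher in all of them. Pdgfrb, a receptor of mesenchymal cells, had 379.9, 208 and 340.2 CPM in Δ-C60 clones 1 to 3 and 533, 384 and 401 CPM in WT(N48) clones 1 to 3. S100a4 had 142, 168 and 102 CPM against 221, 375 and 188 CPM, and Prrx1, a mesenchymal transcription factor, 472, 344 and 90.9 CPM against 375, 459.5 and 532 CPM with 1 low clone, Δ-C60 clone 3. Fewer cells with a marker and less of its RNA per cell cannot be told apart in such bulk samples.

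Markers of other cell types were low in both groups, except those of cartilage and bone. Summed CPM was at most 114 for 15 epithelial markers (12 under 1 CPM in all 6 clones), with Krt19 at the top and Cldn3 at 0, 40.8 for 13 endothelial markers (Flt1 at the top, Tie1, Emcn and Cldn5 at 0), 97.2 for 13 leukocyte markers with Cd14 at the top and Cd3e at 0, and 3.95 for 15 skeletal muscle markers (Myod1, Myf5, Myf6 and Pax7 at 0). Adipocyte markers summed to 38.3, 93.4 and 48.9 CPM in Δ-C60 and 82.1, 137 and 104.5 CPM in WT(N48), with Plin4 at the top and Cidec and Lep at 0. Cebpa, a transcription factor of fat and myeloid cells, was lower in all Δ-C60 clones at 1.24, 7.04 and 1.48 CPM against 14.5, 9.89 and 8.9 CPM (log2 fold change −1.76, SE 0.52, adjusted p = 0.254). Neural and glial markers reached 156 CPM in Δ-C60 clone 1, with Map2 at the top and Olig2 and Nefl at 0. Cartilage and bone markers were between 1416 and 5155 CPM, most of it Spp1, with Col9a1 at 0. The part of other cell types in the differences was not tested.

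Transcription factors of mesenchyme had members with groups apart on both sides, and Hox genes, which mark position along the body axis, had none. Of 63 mesenchymal factors tested, of 82, 3 (4.76%) were higher (Tbx15, Msx2 and Sox8) and 6 (9.52%) lower in all Δ-C60 clones. The shares over all genes were 5.84% and 5.63%. The list median was 0.096, −0.0084 under library size alone and −0.057 without Δ-C60 clone 3. Eya1, a cofactor of limb and organ development, had 16.2, 16.8 and 22.1 CPM in Δ-C60 clones 1 to 3 and 30.6, 67.1 and 43.8 CPM in WT(N48) clones 1 to 3 (log2 fold change −1.36, SE 0.33, adjusted p = 0.201). Tbx18 had 1.28, 11.5 and 0.543 CPM against 32.5, 21.2 and 12.2 CPM, with Δ-C60 clone 2 just under the lowest WT(N48) clone. Of 39 Hox genes 15 were tested, and none had groups that did not overlap. Of 28 imprinted genes tested, of 36, Zrsr1 was higher and Igf2 and Ndn lower in all Δ-C60 clones, with Ndn at 0.241, 10.3 and 36.3 CPM against 58, 75.1 and 63.5 CPM.

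How many genes pass the test depended on Δ-C60 clone 2. Without it, edgeR called 216 genes (1.61% of the genes then tested), 112 higher (0.835%) and 104 lower (0.775%), against 0 with it, while leaving out any other of the 6 clones gave 0 to 2. For 78 of the 216 genes, clone 2 lay on the same side of all WT(N48) clones as its sister clones, and for 138 it did not. Genes of the second kind, chosen after their values were seen, show the pattern. Acp1, a low-molecular-weight tyrosine phosphatase, had 29.4, 3.41 and 27.5 CPM in Δ-C60 clones 1 to 3 and 2.74, 2.5 and 5.08 CPM in WT(N48) clones 1 to 3. Nsg1, a protein of endosomes, had 4.05, 287 and 6.17 CPM against 126, 248 and 292 CPM, and Mcam, a cell adhesion molecule, 372, 51.6 and 1209 CPM against 87.8, 36.4 and 19.9 CPM. In Acp1 and Nsg1 clone 2 was at the level of WT(N48), and in Mcam it was between WT(N48) clones 1 and 2. Rexo2, a mitochondrial nuclease, had 175, 80.6 and 159.5 CPM against 79.5, 77.7 and 81.4 CPM, where clone 2 was again like WT(N48) and the other Δ-C60 clones were well above. Igf2bp3, Kif5c and Cebpa were among the 78 genes.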

How the data were processed

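Counts from 15 stable clones (3 each of Δ-C60, WT(N48), WT, MT194 and MT486) were used, and the 20 population libraries were not. The authors aligned 50 bp single reads of poly(A) RNA to mm10 with bowtie2, skipped those with a mapping quality under 30, and deposited HTSeq counts per gene, without normalization. Tool versions, the gene annotation and the strand setting are not given in the sources used here. Reads on no gene, 9.14% to 12% in each of the 6 clones, were left out. From the counts, edgeR 4.0.16 in R 4.3.3 (filterByExpr, TMM, robust quasi-likelihood fit, 1 mean per group over 15 clones) gave log2 fold changes, and the SE was their size divided by the square root of F. Alternatives used DESeq2 1.42.0 and limma 3.58.1. Positions came from GENCODE M21 or RefSeq on GRCm38, which left 89 of 24421 symbols without one. Named were the NELF subunits, the 12 genes per direction with the smallest p, at least 5 CPM and groups that did not overlap, up to 3 list members per direction by the same order, members of lists of up to 12, and others marked in the text. The comparison, lists and rules were chosen with earlier results of these data known. The steps were tested on simulated data. 1 list member is not reported here.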

Additional observations from a re-analysis of the deposited data

How the results depend on the processing

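The count of called genes, 0 in edgeR on 15 clones, was 142 with DESeq2 on the same clones, 52 with DESeq2 on the 6 clones, 7 under limma voom with quality weights, and 0 to 216 with 1 clone left out, where Δ-C60 clone 2 gave the 216. It stayed at 0 with edgeR on 6 or 12 clones, other scalings, no filter on low counts, a minimum mean of 10 CPM, other fold thresholds and chromosome medians removed. Against the 3 clones labelled WT, whose labels name a lentiviral vector, edgeR called 711 genes, and against both wild-type groups together 0, with 2232 at an unadjusted p under 0.05. Genes at an unadjusted p under 0.05, 1540 in all, numbered 706 with edgeR and 891 with DESeq2 on the 6 clones, 3587 against the clones labelled WT, and 1081 to 2657 with 1 clone left out. Removing chromosome medians and leaving out MT486 clone 2, which lay close to MT486 clone 1, were chosen after seeing the data, and edgeR called 0 genes under each. With the replicate number as a block edgeR called 0 genes, with 1316 at an unadjusted p under 0.05. Deviations of clones that share a number correlated at −0.21, 0.408 and −0.0538, so the numbers do not pair the clones. Alternatives for chromosomes and clone spread were also chosen after seeing the data. The share of chromosome 3 genes higher in all Δ-C60 clones was 10.8% under library size alone and 13.4% without the filter, and that of chromosome 4 was 19.5% and 18.2%, and 29.4% at a mean of at least 10 CPM. The median log2 fold change of chromosome 3 was 0.0982 to 0.498 and that of chromosome 4 0.266 to 0.456 with 1 clone left out, and they were 0.0624 and 0.0541 with chromosome medians removed. Lists with a median above 0, 26 of 47, numbered 16 under limma voom with quality weights and 16 under library size alone. Log2 fold changes that reversed were those of Hist1h4h (−0.53 under limma voom with quality weights, −1.16 to 3.95 with 1 clone left out), Flt1 (−1.17 under the same fit, −1.27 to 1.02), Krt19 (−0.36 without Δ-C60 clone 3, −0.36 to 2.28), Plin4 (0.11 without WT(N48) clone 3, −0.6 to 0.11), Tbx15 (−0.09 with chromosome medians removed) and Nelfa (0.05 without Δ-C60 clone 2, −0.27 to 0.05). The other genes named kept the sign of their log2 fold change under the alternatives that compared Δ-C60 with WT(N48). Against the clones labelled WT some differences in mean CPM lay the other way, as for Col1a1 (2714 CPM in Δ-C60, 2176 in WT and 3958 in WT(N48)). For low genes under a few CPM the depth limits the estimate. The cause of these shifts was not tested.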

Other observations

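A few developmental and imprinted genes were near 0 in some clones and well counted in others, and are given as values chosen after they were seen. Dlk1, an imprinted inhibitor of fat cell formation, had 2582, 0.30 and 455 CPM in Δ-C60 clones 1 to 3 and 0.203, 0.45 and 27.4 CPM in WT(N48) clones 1 to 3. Hoxb9 had 312, 19.8 and 0.0987 CPM against 0.101, 0.0999 and 5.33 CPM, and Runx3, a transcription factor, 0.0401, 32.9 and 37.5 CPM against 0, 0.0999 and 0.0701 CPM. Igf2, an imprinted growth factor, had 0.0802, 4.94 and 0.79 CPM against 6.59, 7.64 and 414 CPM. Sfrp2, a secreted WNT modulator, had 6.86, 2.13 and 8.05 CPM against 1.06, 12.5 and 168 CPM. For Dlk1, Hoxb9 and Sfrp2 the groups overlapped. In Runx3 Δ-C60 clone 1 was like WT(N48), and in Igf2 WT(N48) clone 3 stood alone at the top.

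Xist, the RNA of the silenced X chromosome, was at 1115, 1421 and 694 CPM in Δ-C60 and 1092, 1820 and 1692 CPM in WT(N48), and the Y-linked genes Ddx3y, Eif2s3y, Kdm5d and Uty were at or near 0 CPM in all 6 clones. Genes at least 4-fold above all 5 other clones numbered 18, 88 and 66 in Δ-C60 clones 1 to 3 and 1, 14 and 58 in WT(N48) clones 1 to 3. Genes at least 4-fold below all 5 others numbered 83, 63 and 84 in Δ-C60 and 5, 1 and 49 in WT(N48).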
